A study of Mus musculus with 36 samples.

Results

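The 10 genes described here belong to the MHC class I pathway: B2m, H2-K1, H2-D1, Tap1, Tap2, Tapbp, Psmb8, Psmb9, Psmb10 and Nlrc5. They were listed by name, with no measured value in the rule but with earlier results of these data known. The 54203 genes to which reads were summed held all 10. All 10 passed the filter on low counts in each of the fits. On GRCm38, 7 of them lie in the MHC region of chromosome 17: Tapbp (33915899 to 33929292), H2-K1 (33996017 to 34000347), Psmb9 (34181987 to 34187764), Tap1 (34187553 to 34197225), Psmb8 (34197721 to 34201454), Tap2 (34203527 to 34216321) and H2-D1 (35262730 to 35267499). B2m lies on chromosome 2 (122147686 to 122153083), and Nlrc5 (94434356 to 94527272) and Psmb10 (105935735 to 105938444) lie on chromosome 8. RNA was sequenced from plasma cells sorted from mouse bone marrow as CD138+TACI+, in 36 libraries of 2000 cells from 8 groups in 2 cohorts. All mice were of the strain C57/BL6, and the series describes the sorted cells as reporter-positive. Cohort D held Ccnd1-Ikk2ca (n = 6), Ikk2ca(D) (n = 4), Ccnd1 (n = 4) and Control(D) (n = 4). Cohort M held MMSET-Ikk2ca (n = 6), Ikk2ca(M) (n = 4), MMSET (n = 4) and Control(M) (n = 4). Ccnd1 encodes cyclin D1, MMSET is another name for the histone methyltransferase gene Nsd2, and Ikk2ca stands for a constitutively active form of IKK2, the kinase that switches on canonical NF-κB. The sources used here do not give the promoter or Cre line behind these alleles, the age and sex of the mice, or whether each library came from its own animal, so p-values measure only the spread between these libraries.

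On nucleated cells, MHC class I shows peptides from inside the cell to cytotoxic T cells. A heavy chain (here H2-K1 or H2-D1) pairs with β2-microglobulin, the product of B2m. Proteasomes cut proteins to peptides, and in the immunoproteasome Psmb8, Psmb9 and Psmb10 take the places of the constitutive catalytic subunits Psmb5, Psmb6 and Psmb7. The transporter made of Tap1 and Tap2 moves the peptides into the endoplasmic reticulum, where tapasin, the product of Tapbp, holds the heavy chain for loading. Nlrc5 is the transactivator of class I genes. Interferons, through IRF and other factors, and NF-κB are known to induce these genes, and plasma cells, which secrete antibody, carry class I at their surface.

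The promoters of the heavy chains and of B2m are shown because NF-κB, interferon and Nlrc5 act there and because the active kinase differs between the groups. Windows of 300 bases, from 250 before to 50 after the RefSeq start of the gene, were taken on GRCm38.p6, and 8 of the 10 genes had one. RefSeq starts can differ from the gene limits given above, and the H2-D1 window lies inside those limits. Capitals mark matches to motifs searched on both strands: the κB site of class I promoters (GGGATTCCC), the κB site of the kappa enhancer (GGACTTTCC), an interferon-stimulated response element core (TTTCNNTTC), an IRF repeat (GAAANNGAA), an interferon-gamma activated site (TTCNNNGAA), a CRE-like core (TGACGC) and the CCAAT box (CCAAT). No matches overlapped in the windows shown. H2-K1 is shown on the minus strand at chr17:34000298-34000597, H2-D1 on the plus strand at chr17:35262844-35263143, and B2m on the plus strand at chr2:122147437-122147736.
H2-K1: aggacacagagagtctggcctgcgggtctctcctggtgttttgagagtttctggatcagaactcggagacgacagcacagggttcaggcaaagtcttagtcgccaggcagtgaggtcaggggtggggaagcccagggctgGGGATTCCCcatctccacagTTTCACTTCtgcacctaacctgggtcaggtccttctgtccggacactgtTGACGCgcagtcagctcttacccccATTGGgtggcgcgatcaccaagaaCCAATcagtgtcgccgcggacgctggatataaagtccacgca
H2-D1: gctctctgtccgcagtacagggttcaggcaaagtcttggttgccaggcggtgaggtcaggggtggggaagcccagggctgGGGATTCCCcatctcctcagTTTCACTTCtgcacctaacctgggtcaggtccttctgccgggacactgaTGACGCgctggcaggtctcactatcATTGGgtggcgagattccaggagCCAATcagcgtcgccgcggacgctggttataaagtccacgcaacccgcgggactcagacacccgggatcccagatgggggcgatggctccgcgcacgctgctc
B2m: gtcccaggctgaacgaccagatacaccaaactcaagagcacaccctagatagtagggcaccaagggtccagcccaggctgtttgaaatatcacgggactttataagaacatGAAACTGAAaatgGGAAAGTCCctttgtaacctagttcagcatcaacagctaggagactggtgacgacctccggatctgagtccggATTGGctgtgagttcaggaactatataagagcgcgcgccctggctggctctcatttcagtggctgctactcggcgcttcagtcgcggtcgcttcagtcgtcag

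The H2-K1 and H2-D1 windows hold the same order of motifs: the class I κB site, the interferon-stimulated core, the CRE-like core and CCAAT boxes. Laid on each other at the κB site without gaps, they were identical at 176 of 240 bases (73.3%). In the windows shown, the κB site lies 110 to 102 bases before the RefSeq start of H2-K1 and 170 to 162 bases before that of H2-D1. Another RefSeq start of H2-K1 puts the site 124 to 116 bases before it, so distances depend on the start used. Of 26742 mouse genes with such a window, 111 (0.415%) held GGGATTCCC, among them H2-K1, H2-D1 and other class I heavy chains, H2-Q6 and H2-Q7. The interferon-stimulated core was in the windows of 2 of the 8 members, H2-K1 and H2-D1, and of 8.74% of all genes. The B2m window had instead the kappa enhancer κB site, on the other strand, 126 to 118 bases before the start, a match found in 0.404% of genes, and an IRF repeat 139 to 131 bases before the start (9.74% of genes). These B2m motifs were added after the windows were seen, so their shares of all genes do not measure how unusual the matches are. GGGATTCCC is named for class I promoters, so its share is no test for the heavy chains either. The CRE-like core was in the windows of 2 members and of 8.43% of genes, the CCAAT box in those of 6 members and of 41.0%, and the interferon-gamma activated site in that of 1 member, Psmb8, and of 9.60%. The windows of Tap1 and Psmb9, which are transcribed away from each other, shared 275 bases of chromosome 17 and held no match to either κB motif. A match, or its absence, describes the letters of these windows only.

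Total depth was 54.1 to 97.6 M reads (M for mega) per library, of which immunoglobulin genes took 43.9% to 73.0%, and 16.2 to 34.9 M reads remained for all other genes. The labels' alleles were visible in the RNA. Ccnd1 reached 281 to 983 CPM in the 6 Ccnd1-Ikk2ca and 258 to 381 CPM in the 4 Ccnd1 libraries, against at most 3.55 CPM in any other library. Nsd2 reached 174 to 605 CPM in MMSET-Ikk2ca and 427 to 824 CPM in MMSET libraries, against at most 9.96 CPM elsewhere. The mRNA of Ikbkb, which encodes IKK2, was 42.1 to 83.4 CPM in the 20 libraries of Ikk2ca genotypes and 10.7 to 39.0 CPM in the other 16. All 8 plasma cell markers were above 0 in every library, with Sdc1 at 276 to 622 CPM and Tnfrsf17 (BCMA) lowest at 6.17 to 97.3 CPM. Some fell where the class I genes rose: in Ccnd1-Ikk2ca against Control(D), log2 fold changes were -2.97 for Jchain, -1.11 for Tnfrsf17 and -0.57 for Tnfrsf13b (adjusted p = 0.00134, 0.0173 and 0.029, edgeR). In MMSET-Ikk2ca against Control(M) they were -3.45 for Jchain, -2.01 for Tnfrsf17 and -0.73 for Xbp1 (adjusted p = 0.000623, 0.00164 and 0.0275), and their part in the class I results was not tested. Xist was above 10 CPM in 3 of 6 Ccnd1-Ikk2ca, 4 of 4 Ikk2ca(D) and 2 of 4 Ccnd1 libraries, against 1 of 4 in Control(D). In cohort M it was above 10 CPM in 3 of 6 MMSET-Ikk2ca, 4 of 4 Ikk2ca(M) and 3 of 4 MMSET libraries, against 2 of 4 in Control(M). Libraries with Xist RNA were thus not balanced between groups. The sex of the mice is not given, so Xist is only a sign of it.

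The 10 genes took a share of the reads outside immunoglobulin genes that ranged over 1.01% to 4.16% between libraries. The median share was 2.84% in Ccnd1-Ikk2ca, 2.47% in Ikk2ca(D) and 1.27% in Ccnd1 libraries, against 1.33% in Control(D). In cohort M it was 3.82% in MMSET-Ikk2ca, 3.32% in Ikk2ca(M) and 2.96% in MMSET libraries, against 2.02% in Control(M). Set side by side per length, as TPM (transcripts of the gene per M transcripts of a library), B2m was the most abundant, with a median of 2315 TPM over the 36 libraries. The heavy chains followed, H2-K1 at 610.1 TPM and H2-D1 at 325 TPM. Psmb8 had a median of 131 TPM and Tapbp of 65.3 TPM, ahead of Psmb9 at 42.9 TPM and Psmb10 at 28.9 TPM. The transporter genes were lower, Tap2 at 19.2 TPM and Tap1 at 11.7 TPM, and Nlrc5 was lowest at 3.94 TPM. Between groups, all further levels are CPM (reads of the gene per M reads, scaled with TMM over all 36 libraries).

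**Figure D1:**
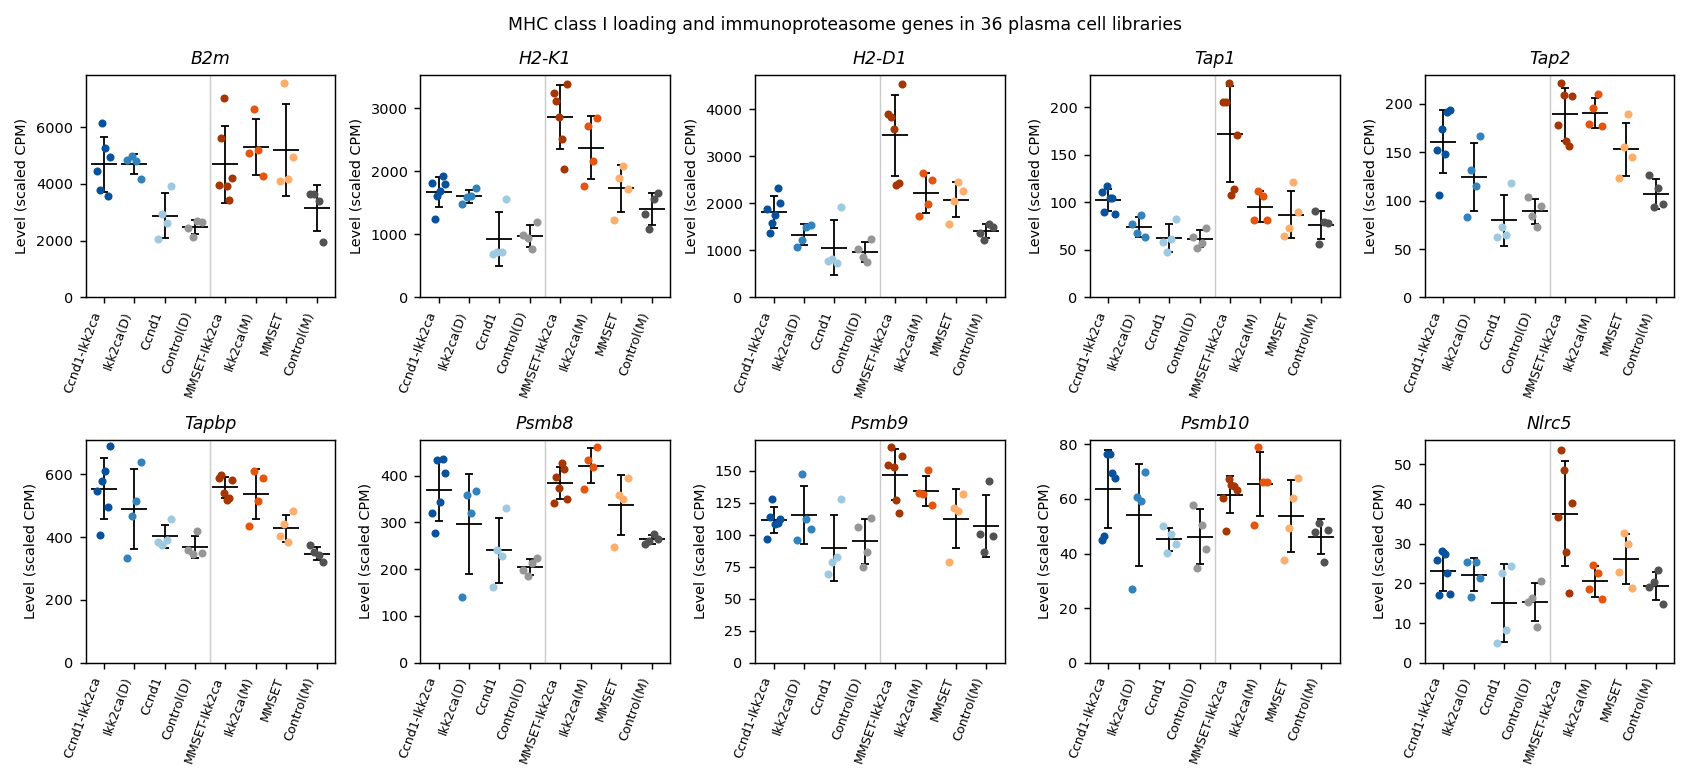
CPM of each of the 10 genes in the 36 libraries, on linear axes from 0; points are libraries, bars the group mean and SD, and the grey line parts cohort D from cohort M. H2-D1 and H2-K1 were highest in MMSET-Ikk2ca libraries, at 2395 to 4534 and 2036 to 3389 CPM.

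In cohort D, the class I genes were higher with active IKK2 together with cyclin D1. Of the 10 genes, 7 rose in Ccnd1-Ikk2ca plasma cells against Control(D) and none fell: both heavy chains, B2m, both transporter genes, tapasin and Psmb8. Rises were 1.51-fold to 1.89-fold. Psmb9, Psmb10 and Nlrc5 did not pass the test. An adjusted p under 0.05 in edgeR's quasi-likelihood test, with Benjamini-Hochberg adjustment over all genes, called 11.1% of the 15323 genes in either direction and 5.83% as higher. The median log2 fold change of the 10 genes was 0.76, and that of all genes tested was 0.02.

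B2m was 3583 CPM at the lowest, 4696 at the median and 6137 at the highest in Ccnd1-Ikk2ca libraries, against 2136, 2432, 2644 and 2695 CPM in Control(D). The groups did not overlap. B2m rose with a log2 fold change of 0.92 ± 0.17 (SE, adjusted p = 0.00185), which is 1.89-fold. In bulk RNA such as this, fewer cells of a type and less RNA per cell cannot be told apart, here or in any result that follows.

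H2-D1, a classical heavy chain, was 1379 CPM at the lowest, 1809.7 at the median and 2334 at the highest in Ccnd1-Ikk2ca libraries, against 762, 864, 1025 and 1245 CPM in Control(D). All 6 double-allele libraries were above all 4 controls, and H2-D1 rose 1.87-fold (log2 fold change 0.90 ± 0.24, adjusted p = 0.0223). H2-K1, the other classical heavy chain, was 1241, 1739 and 1918 CPM at the lowest, median and highest in Ccnd1-Ikk2ca, against 772, 936, 994 and 1195 CPM in Control(D). Here too the groups stood apart, by a narrow gap, and H2-K1 rose 1.72-fold (0.78 ± 0.20, adjusted p = 0.0183). The genes of the heavy chain family are near-identical in parts, so the split of reads between them is uncertain. Summed over 31 heavy chain genes, of whose reads H2-K1 and H2-D1 held medians of 36.7% and 38.8%, the family rose with a log2 fold change of 0.84 ± 0.20 (adjusted p = 0.0113).

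Tap1, the first subunit of the peptide transporter, was 87.1, 104 and 117 CPM (lowest, median, highest) in Ccnd1-Ikk2ca, against 51.8, 57.6, 63.7 and 73.0 CPM in Control(D). The groups did not overlap, and Tap1 rose 1.66-fold (0.73 ± 0.15, adjusted p = 0.00513). Tap2, its partner, was 106, 163 and 193 CPM in Ccnd1-Ikk2ca, against 72.9, 84.5, 94.1 and 104 CPM in Control(D), which put the lowest double-allele library just above the highest control. Tap2 rose 1.81-fold (0.86 ± 0.22, adjusted p = 0.0166). Tapbp was 406, 563 and 692 CPM in Ccnd1-Ikk2ca, against 347, 350.1, 358 and 419 CPM in Control(D), and overlapped by 1 control library. Its rise was 1.51-fold (0.59 ± 0.16, adjusted p = 0.0258).

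Among the immunoproteasome subunits, Psmb8 was 277, 375 and 435 CPM (lowest, median, highest) in Ccnd1-Ikk2ca, against 186, 197, 213 and 223 CPM in Control(D). The groups stood apart and Psmb8 rose 1.80-fold (0.85 ± 0.23, adjusted p = 0.0246). Psmb9 averaged 111 ± 10.1 CPM in Ccnd1-Ikk2ca, against 94.9 ± 17.7 CPM in Control(D) (SD), with a log2 difference of 0.23 ± 0.17 (adjusted p = 0.451). The approximate 95% interval of that difference was -0.10 to 0.56; whether the subunits differed from each other was not tested. Psmb10 averaged 63.6 ± 14.3 CPM in Ccnd1-Ikk2ca, against 46.2 ± 10.2 CPM in Control(D) (0.46 ± 0.23, adjusted p = 0.214). Nlrc5 averaged 23.1 ± 4.96 CPM in Ccnd1-Ikk2ca, against 15.2 ± 4.81 CPM in Control(D), with overlapping groups (0.60 ± 0.35, adjusted p = 0.314).

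The count changed with the control libraries. Of the 10 genes, 4 passed without Control(D) replicate 1, 2 without replicate 2 and 3 without replicate 3, and B2m and Tap1 passed in every one of the 28 alternatives run for them.

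Fewer of the genes passed with either allele alone in cohort D. These comparisons share the 4 Control(D) libraries with the one above, as those of cohort M share Control(M). In both cohorts single-allele groups held 4 libraries and double-allele groups 6, so their counts of called genes do not compare the size of effects. In Ikk2ca(D) against Control(D), 1 of the 10 passed, B2m, where 0.437% of all genes passed. B2m was 4167, 4792, 4851 and 4994 CPM in Ikk2ca(D), against 2136 to 2695 CPM in Control(D), without overlap, and rose 1.90-fold (0.92 ± 0.18, adjusted p = 0.0225). H2-K1 also stood apart, at 1483, 1594, 1607 and 1739.8 CPM in Ikk2ca(D), against 772 to 1195 CPM in Control(D), but its difference of 0.72 ± 0.22 did not pass (adjusted p = 0.153). All 10 log2 differences were above 0, with a median of 0.47 against 0.01 for all genes, but with Xist as a covariate the median of the 10 was 0.17. An unadjusted p under 0.05 was found for 4 of the 10 and 2045 of all genes. The call of B2m did not hold without Control(D) replicate 1, 2 or 3 or Ikk2ca(D) replicate 2, nor with Xist as a covariate or only the groups compared (adjusted p 0.000102 to 0.256 over 28 alternatives). Ikk2ca(D) replicate 1 stood apart, with a median correlation of 0.752 with its group, against 0.878 to 0.883 for the other 3, and a mean standardised class I level of -0.94, against 0.09 to 0.26 for the other 3 and -1.43 to -0.74 in Control(D). Without it, 1 gene passed again, B2m, and the median of the 10 was 0.55.

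In Ccnd1 against Control(D), none of the 10 passed, where 1 gene of 15323 did (0.00653%). At an unadjusted p under 0.05 the counts were 0 of the 10 and 963 of all genes, and DESeq2 and limma voom also called none of the 10. Their median log2 difference was 0.01. The levels overlapped for every gene, and Ccnd1 replicate 4 lay far above the other 3 for both heavy chains, at 1925 against 735 to 807 CPM for H2-D1 and at 1562 against 684 to 718 CPM for H2-K1.

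Ccnd1-Ikk2ca libraries were also set against each single allele. Against Ccnd1, 4 genes rose, where 6.20% of all genes passed and 2.81% as higher. Tap2 rose 2.01-fold (SE 0.22 on the log2 scale, adjusted p = 0.00978). On the log2 scale, H2-K1 rose by 0.86 ± 0.20 (adjusted p = 0.0164), Tap1 by 0.70 ± 0.15 (adjusted p = 0.00958) and B2m by 0.69 ± 0.17 (adjusted p = 0.0164). The count fell to 2 without Ccnd1 replicate 1 or 3, and reached 6 without Ikk2ca(D) replicate 1 or Ccnd1-Ikk2ca replicate 2. Against Ikk2ca(D), none passed, where 0.424% of all genes did. There 1 of the 10 had an unadjusted p under 0.05, against 1737 of all genes, and DESeq2 and limma voom called none. The difference of B2m was 0.00 ± 0.16, with an approximate 95% interval of -0.32 to 0.31. The largest difference was that of Tap1 (0.47 ± 0.15, adjusted p = 0.209), whose levels of 87.1 to 117 CPM in Ccnd1-Ikk2ca lay above the 63.3 to 87.0 CPM in Ikk2ca(D). Whether the effect of both alleles differed from the sum of their single effects on the log2 scale was tested as an interaction. None of the 10 passed, where 0.0261% of all genes did. At an unadjusted p under 0.05 there were 0 of the 10 and 1051 of all genes.

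**Figure D2:**
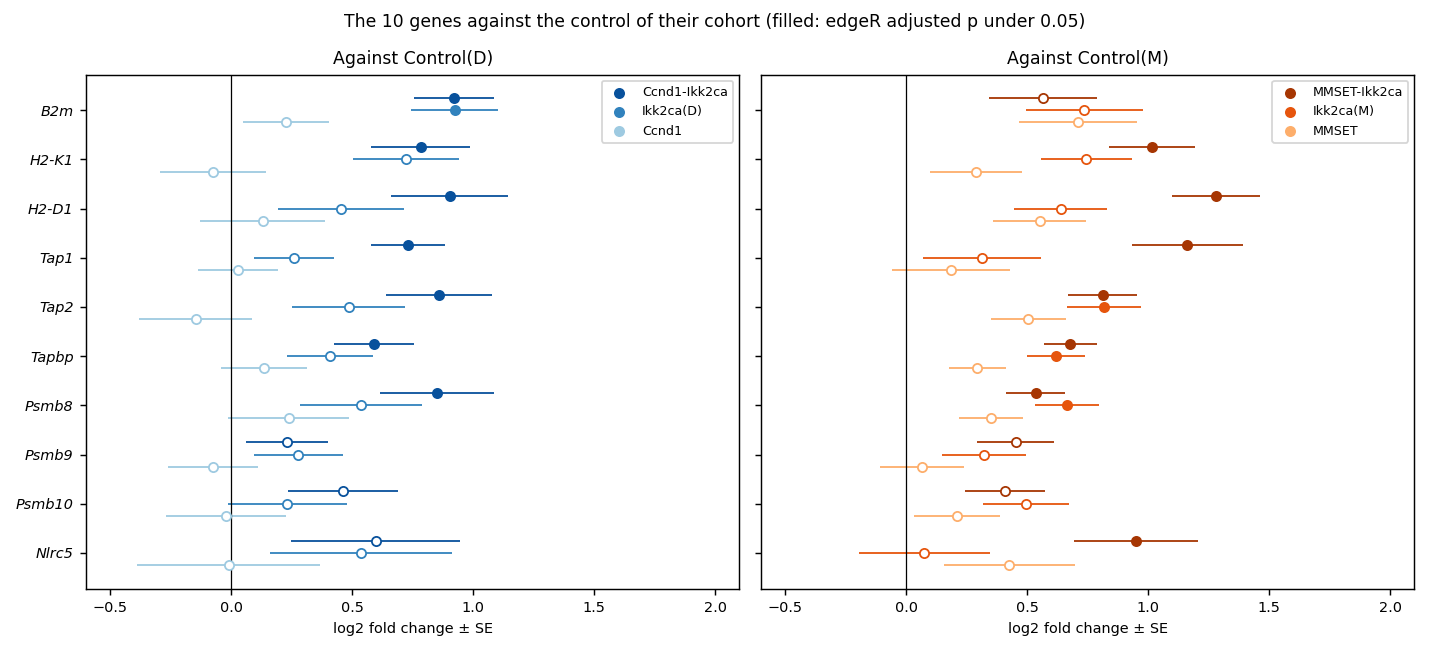
Log2 fold change with SE of each gene against the control of its cohort, from edgeR; filled points have an adjusted p under 0.05. Of the 10 genes, 7 are filled in each double-allele group, and none in Ccnd1 or MMSET.

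In cohort M, active IKK2 together with MMSET also went with higher class I RNA. Of the 10 genes, 7 rose in MMSET-Ikk2ca against Control(M) and none fell, where 6.91% of all 15416 genes passed and 3.50% as higher. They were H2-D1, H2-K1, Tap1, Tap2, Tapbp, Psmb8 and Nlrc5. The median log2 fold change of the 10 was 0.74, and that of all genes was 0.01. B2m, called in Ccnd1-Ikk2ca, was not called here, and Nlrc5 was; whether the effects differed between the cohorts was tested, with values further on.

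H2-D1 was 2395, 3709 and 4534 CPM (lowest, median, highest) in MMSET-Ikk2ca, against 1214, 1371, 1494 and 1567 CPM in Control(M). The groups were well apart, and H2-D1 rose 2.43-fold (1.28 ± 0.18, adjusted p = 0.00032). H2-K1 was 2036, 2987 and 3389 CPM in MMSET-Ikk2ca, against 1087, 1328, 1562 and 1651 CPM in Control(M), also without overlap. It rose 2.02-fold (1.02 ± 0.18, adjusted p = 0.00168), and the 31 heavy chain genes summed rose by 1.20 ± 0.16 (adjusted p = 0.000231).

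Tap1 was 108, 188 and 225 CPM (lowest, median, highest) in MMSET-Ikk2ca, against 56.6, 77.9, 79.3 and 91.2 CPM in Control(M). The double-allele libraries were spread over a wide range, all above the controls, and Tap1 rose 2.24-fold (1.16 ± 0.23, adjusted p = 0.00442). Tap2 was 157, 193 and 222 CPM in MMSET-Ikk2ca, against 93.3, 96.6, 113 and 127 CPM in Control(M), and rose 1.75-fold (0.81 ± 0.14, adjusted p = 0.00181). Tapbp was 519, 561 and 598 CPM in MMSET-Ikk2ca, against 322, 342, 353 and 375 CPM in Control(M), a narrow range in both groups, and rose 1.60-fold (0.68 ± 0.11, adjusted p = 0.000919).

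Psmb8 was 341, 385 and 426 CPM (lowest, median, highest) in MMSET-Ikk2ca, against 254, 261, 264 and 276 CPM in Control(M), without overlap. It rose 1.45-fold (0.53 ± 0.12, adjusted p = 0.012). Nlrc5 was 17.7, 38.5 and 53.7 CPM in MMSET-Ikk2ca, against 14.8, 19.0, 20.3 and 23.3 CPM in Control(M). The groups overlapped, and the rise of 1.93-fold (0.95 ± 0.26, adjusted p = 0.0303) did not hold without any 1 of 6 libraries, namely Control(M) replicates 1, 2 and 4 and MMSET-Ikk2ca replicates 2, 3 and 6 (adjusted p 0.000762 to 0.0957 over 28 alternatives).

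B2m was 3419, 4076 and 7023 CPM (lowest, median, highest) in MMSET-Ikk2ca, against 1945, 3395, 3649 and 3651 CPM in Control(M). The ranges overlapped, and the difference of 0.57 ± 0.22 did not pass (adjusted p = 0.14). Psmb9 averaged 147 ± 20.2 CPM in MMSET-Ikk2ca and 107 ± 24.1 CPM in Control(M) (0.45 ± 0.16, adjusted p = 0.0979), and Psmb10 averaged 61.5 ± 6.82 CPM in MMSET-Ikk2ca and 46.2 ± 6.37 CPM in Control(M) (0.41 ± 0.16, adjusted p = 0.145). All 10 had an unadjusted p under 0.05 in this comparison, as did 3365 of all 15416 genes. Leaving out 1 library at a time gave 6 to 8 called genes.

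With active IKK2 alone, 3 genes rose in Ikk2ca(M) against Control(M), where 0.649% of all genes passed and 0.506% as higher. The log2 differences of all 10 genes were above 0, with a median of 0.63 against -0.01 for all genes. At an unadjusted p under 0.05 there were 7 of the 10 and 1912 of all genes. Tap2 was 177, 179, 196 and 210.1 CPM in Ikk2ca(M), against 93.3 to 127 CPM in Control(M), and rose 1.76-fold (0.82 ± 0.15, adjusted p = 0.0147). Psmb8 was 371, 418, 434 and 461 CPM in Ikk2ca(M), against 254 to 276 CPM in Control(M), and rose 1.59-fold (0.67 ± 0.13, adjusted p = 0.0195). Tapbp was 435, 514, 590.2 and 609 CPM in Ikk2ca(M), against 322 to 375 CPM in Control(M), and rose 1.53-fold (0.62 ± 0.12, adjusted p = 0.0157). For each of the 3, every Ikk2ca(M) library was above every control. The groups also stood apart for H2-K1 (1772 to 2837 CPM in Ikk2ca(M), against 1087 to 1651 in Control(M)), H2-D1 and B2m, which did not pass (adjusted p 0.0904, 0.17 and 0.219). The share of all genes whose groups stood apart was not counted in any comparison, so standing apart only describes the levels. The count was 0 without Control(M) replicate 4 or Ikk2ca(M) replicate 2, and 1 without Control(M) replicate 3 or Ikk2ca(M) replicate 3 or 4.

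In MMSET against Control(M), none of the 10 passed, where 0.649% of all genes did. At an unadjusted p under 0.05 there were 5 of the 10 and 2048 of all genes, limma voom called none of the 10, and DESeq2 called 1, Tap2. All 10 log2 differences were above 0, with a median of 0.32 against 0.01 for all genes. The largest was that of B2m, at 4118, 4176, 4935 and 7573 CPM in MMSET, against 1945 to 3651 CPM in Control(M) (0.71 ± 0.24, adjusted p = 0.213).

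Against its single alleles, MMSET-Ikk2ca was higher than MMSET for 3 genes, where 1.58% of all genes passed and 0.642% as higher. Tap1 rose by 0.98 ± 0.23 (adjusted p = 0.0372), H2-D1 by 0.73 ± 0.18 (adjusted p = 0.0458) and H2-K1 by 0.73 ± 0.18 (adjusted p = 0.0437). These calls were close to the threshold: none held without MMSET replicate 1, 2 or 4 or MMSET-Ikk2ca replicate 1, 2, 3 or 6, and 1 held without Control(M) replicate 1 or 3 or Ikk2ca(M) replicate 2 or 3. Against Ikk2ca(M), none passed, where 0.960% of all genes did. There 3 of the 10 and 1934 of all genes had an unadjusted p under 0.05, and DESeq2 called 3 (H2-D1, Tap1 and Nlrc5) and limma voom 2 (H2-D1 and Tap1). The differences were 0.85 ± 0.23 for Tap1 (adjusted p = 0.079), 0.64 ± 0.18 for H2-D1 (adjusted p = 0.0951) and 0.88 ± 0.25 for Nlrc5 (adjusted p = 0.113). Without MMSET-Ikk2ca replicate 4, 2 genes passed, and without replicate 5, 1 did.

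As an interaction of MMSET and Ikk2ca, none of the 10 passed, where 0.0973% of all genes did. Their signs were mixed, with 4 of 10 above 0. Tap1 had the highest value (0.66 ± 0.33) and B2m the lowest (-0.88 ± 0.33, adjusted p = 0.345). An unadjusted p under 0.05 was found for 3 of the 10 and 1605 of all genes. For B2m, the means were 4693 CPM in MMSET-Ikk2ca, 5291 in Ikk2ca(M) and 5200.4 in MMSET, against 3160.0 in Control(M).

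MMSET-Ikk2ca was then set directly against Ccnd1-Ikk2ca. In a fit of all 36 libraries, 3 of the 10 were higher in MMSET-Ikk2ca and none lower, where 2.49% of all 17116 genes passed and 0.923% as higher. H2-D1 was 2395 to 4534 CPM in MMSET-Ikk2ca, against 1379 to 2334 CPM in Ccnd1-Ikk2ca, a difference of 0.92 ± 0.19 (adjusted p = 0.00559). H2-K1 was 2036 to 3389 CPM in MMSET-Ikk2ca, against 1241 to 1918 CPM in Ccnd1-Ikk2ca (0.77 ± 0.17, adjusted p = 0.00895). Tap1 was 108 to 225 CPM in MMSET-Ikk2ca, against 87.1 to 117 CPM in Ccnd1-Ikk2ca (0.75 ± 0.17, adjusted p = 0.0119). The heavy chains did not overlap between the groups and Tap1 did. All 3 calls held in each of the 45 alternatives run for them. Over the other 7 genes the log2 differences ran over a range of -0.05 (Psmb10) to 0.70 (Nlrc5, adjusted p = 0.214).

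The controls of the cohorts were compared in the same way. The median log2 difference of the 10 genes in Control(M) against Control(D) was 0.33, with H2-D1 at 0.54 ± 0.24 and H2-K1 at 0.53 ± 0.21 (adjusted p = 0.433 and 0.416). None of the 10 passed there, where 0.0409% of all genes did, 2 of the 10 and 1780 of all genes had an unadjusted p under 0.05, and DESeq2 and limma voom called none of the 10. With each double-allele group first set against its own control, the effect in cohort M minus that in cohort D was 0.39 ± 0.31 for H2-D1, 0.24 ± 0.27 for H2-K1, 0.44 ± 0.27 for Tap1, -0.35 ± 0.28 for B2m and 0.36 ± 0.44 for Nlrc5. None of the 10 passed, where 0.175% of all genes did, and 0 of the 10 and 1910 of all genes had an unadjusted p under 0.05. The same difference for Ikk2ca alone called no member and no gene (0.00%), with 0 of the 10 and 1079 of all genes at an unadjusted p under 0.05, and DESeq2 and limma voom called none of the 10. The MMSET and Ccnd1 alleles and the cohorts cannot be told apart in the direct comparison of the double-allele groups.

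Immunoproteasome subunits were also set over the constitutive subunits they replace, as ratios of TPM within a library, a description with no test. Psmb8 over Psmb5 averaged 3.86 ± 0.58 in Ccnd1-Ikk2ca, 3.18 ± 0.93 in Ikk2ca(D) and 2.70 ± 0.83 in Ccnd1, against 2.77 ± 0.21 in Control(D). It averaged 4.54 ± 0.35 in MMSET-Ikk2ca, 4.51 ± 0.99 in Ikk2ca(M) and 3.86 ± 0.42 in MMSET, against 3.69 ± 0.50 in Control(M). In both cohorts the ratios of the double-allele and control libraries overlapped. Psmb9 over Psmb6 averaged 0.534 ± 0.062 in Ccnd1-Ikk2ca against 0.591 ± 0.142 in Control(D), and 0.752 ± 0.205 in MMSET-Ikk2ca against 0.535 ± 0.185 in Control(M). Psmb10 over Psmb7 averaged 2.63 ± 0.67 in Ccnd1-Ikk2ca against 2.70 ± 0.74 in Control(D), and 2.93 ± 0.45 in MMSET-Ikk2ca against 2.80 ± 0.98 in Control(M). A median of 40.5% of Psmb8 reads and 70.7% of Tap2 reads were assigned to transcripts annotated as retained introns, so the TPM of these genes depends on that assignment.

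**Figure D3:**
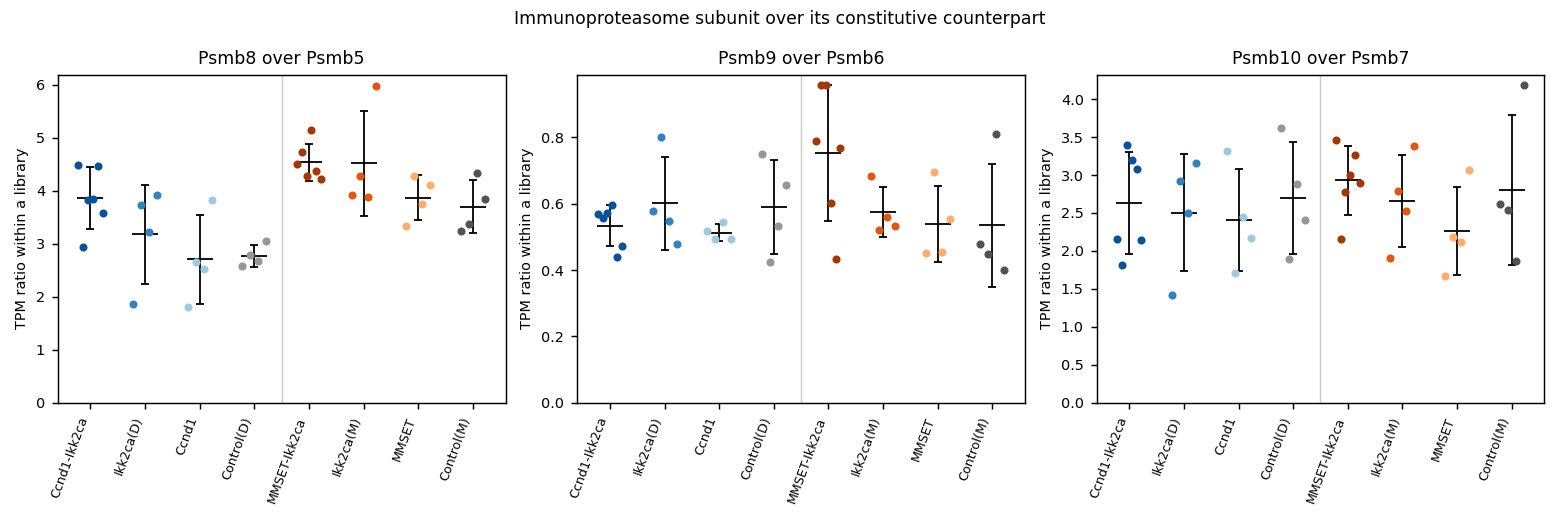
TPM of each immunoproteasome subunit over that of its constitutive counterpart in the same library; points are libraries, and bars the group mean and SD. Psmb8 over Psmb5 averaged 3.86 in Ccnd1-Ikk2ca and 4.54 in MMSET-Ikk2ca libraries, against 2.77 in Control(D) and 3.69 in Control(M).

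Other genes of the pathway were taken from lists by role. Of 8 partners of loading in the endoplasmic reticulum, 3 rose in Ccnd1-Ikk2ca against Control(D) and none fell (median log2 difference 0.25). Tapbpl, the tapasin-related peptide editor, was 116 to 205 CPM in Ccnd1-Ikk2ca, against 60.5 to 89.3 CPM in Control(D) (1.13 ± 0.24, adjusted p = 0.00583). The oxidoreductases P4hb (0.52 ± 0.12, adjusted p = 0.0109) and Ero1a (0.61 ± 0.19, adjusted p = 0.039) also rose. In MMSET-Ikk2ca against Control(M), 2 of the 8 rose (median 0.33): Tapbpl, at 142 to 180.5 CPM in MMSET-Ikk2ca, against 80.3 to 92.7 CPM in Control(M) (0.90 ± 0.16, adjusted p = 0.00212), and Ero1a (0.97 ± 0.26, adjusted p = 0.0317). Tapbpl was also the 1 called gene of the list in Ikk2ca(M) (0.89 ± 0.17, adjusted p = 0.0184).

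Of 6 genes of the proteasome activator and of proteasome assembly, 3 rose in Ccnd1-Ikk2ca against Control(D) (median 0.49) and 2 in MMSET-Ikk2ca against Control(M) (median 0.13), and none fell. Psme1 and Psme2 encode the PA28 activator that caps the immunoproteasome. Psme2 averaged 131 ± 27.1 CPM in Ccnd1-Ikk2ca, against 60.6 ± 5.43 CPM in Control(D) (1.11 ± 0.19, adjusted p = 0.00109), and 137 ± 16.1 CPM in MMSET-Ikk2ca and 69.1 ± 3.90 CPM in Control(M) (0.98 ± 0.17, adjusted p = 0.00131). Psme1 averaged 99.1 ± 20.2 CPM in Ccnd1-Ikk2ca, against 52.6 ± 12.1 CPM in Control(D) (0.91 ± 0.18, adjusted p = 0.0039), and it rose by 0.65 ± 0.13 in MMSET-Ikk2ca (adjusted p = 0.00455). The third gene called in cohort D was Psmg1, an assembly chaperone (0.69 ± 0.22, adjusted p = 0.045). Psme1 and Psme2 were also the 2 called genes of the list in Ikk2ca(M) (0.70 ± 0.14 and 0.86 ± 0.18, adjusted p = 0.0195 and 0.0266). Of the 3 constitutive catalytic subunits, Psmb7 rose in Ccnd1-Ikk2ca (0.46 ± 0.14, adjusted p = 0.0358) and none was called in the other comparisons with a control.

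**Figure D4:**
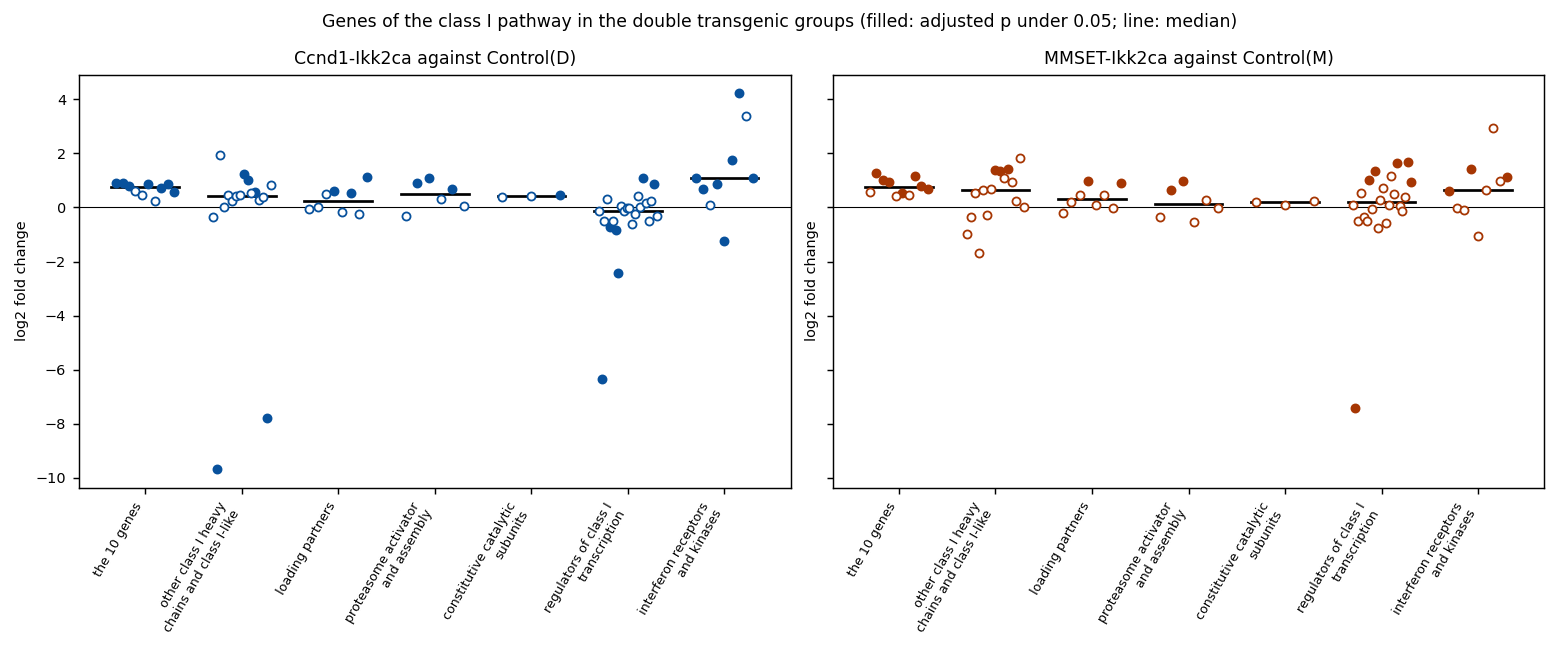
Log2 fold changes of the 10 genes and of 6 lists in the double-allele groups against their controls; filled points have an adjusted p under 0.05, and lines are medians. The points far below 0 are Fcgrt and Hfe, at 0 CPM in all Ccnd1-Ikk2ca libraries, and Ciita, at most 0.442 CPM in either double-allele group, and the medians of the 10 genes are 0.76 against Control(D) and 0.74 against Control(M).

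Of 19 other class I heavy chain and class I-like genes, 16 could be tested in cohort D and 15 in cohort M. The same 3, H2-Q6, H2-Q7 and H2-T22, rose in both double-allele groups. The promoter windows of H2-Q6 and H2-Q7 also hold the class I κB site, and H2-T22 was not among the 111 genes with a match. Not every gene had a window, and for H2-T22 this is not given. Its absence from the 111 does not show that the site is missing. Whether the site had a part in these rises was not tested. H2-Q6 averaged 189 ± 39.1 CPM in Ccnd1-Ikk2ca, against 80.8 ± 33.8 CPM in Control(D) (1.22 ± 0.26, adjusted p = 0.00586). It averaged 391 ± 105 CPM in MMSET-Ikk2ca and 147 ± 26.1 CPM in Control(M) (1.40 ± 0.24, adjusted p = 0.00139). H2-Q7 rose by 1.02 ± 0.27 in Ccnd1-Ikk2ca and 1.36 ± 0.30 in MMSET-Ikk2ca (adjusted p = 0.0199 and 0.0107), and H2-T22, a nonclassical heavy chain, by 0.56 ± 0.15 and 1.43 ± 0.27 (adjusted p = 0.0232 and 0.00271). The split of reads between H2-Q6 and H2-Q7 is uncertain, since the genes are near-identical. In cohort D 2 genes fell: Fcgrt, the neonatal Fc receptor, was at 0 CPM in all 6 Ccnd1-Ikk2ca libraries, against 0.682 to 2.42 CPM in Control(D), and Hfe was at 0 CPM in all 6, against 0 to 0.850 CPM in Control(D).

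The 22 regulators of class I transcription did not move together: 2 rose and 4 fell in Ccnd1-Ikk2ca against Control(D) (median -0.13), and 5 rose and 1 fell in MMSET-Ikk2ca against Control(M) (median 0.19). Relb, a subunit of NF-κB, was the 1 called in all 4 groups with Ikk2ca. It was 39.2 to 73.3 CPM in Ccnd1-Ikk2ca and 46.5 to 73.8 CPM in Ikk2ca(D), against 16.5 to 31.6 CPM in Control(D) (1.10 ± 0.24 and 1.35 ± 0.25, adjusted p = 0.00598 and 0.0198). It was 47.2 to 75.3 CPM in MMSET-Ikk2ca and 41.3 to 50.4 CPM in Ikk2ca(M), against 12.5 to 27.6 CPM in Control(M) (1.63 ± 0.23 and 1.29 ± 0.24, adjusted p = 0.000283 and 0.0132). Irf9, a subunit of the transcription factor complex that acts downstream of type I interferon, rose by 1.35 ± 0.32 in MMSET-Ikk2ca (adjusted p = 0.0157).

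Irf8, an interferon regulatory factor of B cells and myeloid cells, averaged 12.2 ± 6.08 CPM in Ccnd1-Ikk2ca, against 66.5 ± 8.21 CPM in Control(D), and fell by 2.44 ± 0.40 on the log2 scale (adjusted p = 0.0012). It also fell by 2.06 ± 0.43 in Ikk2ca(M) against Control(M) (adjusted p = 0.033). Irf2 fell by 0.74 ± 0.16 in Ccnd1-Ikk2ca (adjusted p = 0.00679). Ciita, the transactivator of MHC class II and a relative of Nlrc5, was 0 to 0.442 CPM in Ccnd1-Ikk2ca, against 0.101 to 16.6 CPM in Control(D), and 0 to 0.299 CPM in MMSET-Ikk2ca, against 0 to 33.1 CPM in Control(M) (adjusted p = 0.0241 and 0.0322). Set directly against Ccnd1-Ikk2ca, MMSET-Ikk2ca had 5 higher regulators and none lower; those named were chosen after their values were seen. Irf7 averaged 43.6 ± 16.3 CPM in MMSET-Ikk2ca and 12.7 ± 3.88 CPM in Ccnd1-Ikk2ca (1.78 ± 0.26, adjusted p = 9.13e-05). Irf8 (1.99 ± 0.38), Irf9 (1.08 ± 0.23) and Stat2 (1.05 ± 0.21) were also higher, with adjusted p of 0.00288 to 0.0067. For Irf7, the effect of the double-allele genotype against its control was larger in cohort M than in cohort D by 1.87 ± 0.41 on the log2 scale (adjusted p = 0.0391), the 1 gene of the 6 lists called in that test.

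Of 9 interferon receptor and kinase genes, 6 rose and 1 fell in Ccnd1-Ikk2ca against Control(D) (median 1.08), and 3 rose and none fell in MMSET-Ikk2ca against Control(M) (median 0.65). Tyk2, a kinase of the type I interferon receptor, averaged 111 ± 25.3 CPM in Ccnd1-Ikk2ca, against 52.6 ± 1.61 CPM in Control(D) (1.08 ± 0.19, adjusted p = 0.00174). It also rose in MMSET-Ikk2ca (1.12 ± 0.21, adjusted p = 0.00274) and in Ikk2ca(M) (1.09 ± 0.22, adjusted p = 0.0251). Ifnar1, a chain of that receptor, rose by 1.08 ± 0.23 in Ccnd1-Ikk2ca and by 0.62 ± 0.17 in MMSET-Ikk2ca (adjusted p = 0.00507 and 0.0354). Ifngr2, a chain of the interferon-gamma receptor, averaged 30.5 ± 5.69 CPM in MMSET-Ikk2ca and 11.5 ± 2.93 CPM in Control(M) (1.40 ± 0.22, adjusted p = 0.000774). In Ccnd1-Ikk2ca, Jak2 rose by 1.77 ± 0.37 (adjusted p = 0.00522) and Jak1 fell by 1.24 ± 0.29 on the log2 scale (adjusted p = 0.011). In Ccnd1 against Control(D) and in MMSET against Control(M), no gene of the 6 lists was called.

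Across the 36 libraries, the 10 genes were compared with 5620 others by Pearson correlation with the mean of their standardised log2 CPM. The points share library scaling and depth, and groups form much of the spread, so r is a description. The genes most alike were Cd74 (r = 0.944), which encodes the invariant chain of MHC class II, Ifi211 (0.920), an interferon-inducible gene, H2-Q6 (0.912), Cd52 (0.906), Creb3 (0.906), Psme2 (0.896), H2-Q7 (0.892) and Tmem176a (0.889). Cd74 averaged 7517 ± 1947 CPM in Ccnd1-Ikk2ca, against 2925 ± 542 CPM in Control(D), and 10620.1 ± 2328 CPM in MMSET-Ikk2ca and 3934 ± 909 CPM in Control(M), while Ciita was near 0 in both double-allele groups. Ifi211 averaged 213 ± 38.3 CPM in Ccnd1-Ikk2ca, against 18.4 ± 4.08 CPM in Control(D), and 303 ± 79.8 CPM in MMSET-Ikk2ca and 41.7 ± 6.08 CPM in Control(M).

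The genes most opposed were Ets1 (r = -0.904), a transcription factor, Ctse (-0.888), a protease, Arl5a (-0.873), Jchain (-0.869), which encodes the joining chain of polymeric antibody, Pqlc3 (-0.863), Mfsd10 (-0.857), Foxn3 (-0.857) and Lsp1 (-0.857). Ets1 averaged 5.74 ± 2.42 CPM in Ccnd1-Ikk2ca, against 43.7 ± 2.92 CPM in Control(D), and 1.75 ± 0.60 CPM in MMSET-Ikk2ca and 32.4 ± 4.13 CPM in Control(M). Jchain averaged 9415 ± 5108 CPM in Ccnd1-Ikk2ca, against 73742 ± 18659 CPM in Control(D), and 2940.1 ± 1235 CPM in MMSET-Ikk2ca and 31938 ± 4039 CPM in Control(M). Among the 10 genes themselves, H2-D1 and H2-K1 were most alike (r = 0.953, and 0.932 on deviations from group means), and Psmb10 and Nlrc5 least (0.155, and -0.201 on deviations), over the same 36 libraries.

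**Figure D5:**
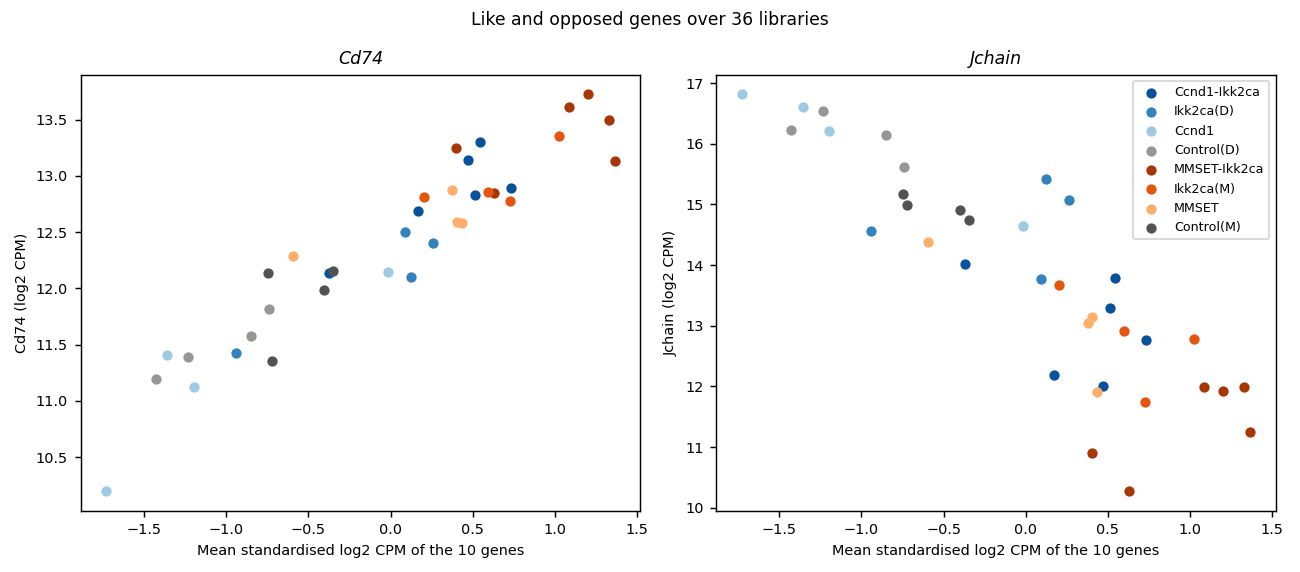
Log2 CPM of Cd74 (left) and Jchain (right) against the mean standardised log2 CPM of the 10 genes, 1 point per library, coloured by group. Cd74 runs with the 10 genes (r = 0.944) and Jchain against them (r = -0.869), with MMSET-Ikk2ca libraries at the upper end of the class I axis.

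Markers of other cells differed in summed level between the same groups, and their part in the results was not tested. Summed B cell markers (6 genes) were 31.3 to 52.8 CPM in Ccnd1-Ikk2ca, against 102 to 194 CPM in Control(D), and 57.7 to 111 CPM in MMSET-Ikk2ca, against 132 to 373 CPM in Control(M). Fcer2a went the other way, averaging 10.1 CPM in Ccnd1-Ikk2ca against 0.683 CPM in Control(D), and 39.8 CPM in MMSET-Ikk2ca against 0.907 CPM in Control(M). The other markers of that list averaged lower in both double-allele groups, with Cr2 at 0 in every Ccnd1-Ikk2ca library. Summed neutrophil markers (8 genes) were 1.11 to 218 CPM in Ccnd1-Ikk2ca, against 42.7 to 531 CPM in Control(D), and 0.774 to 12.8 CPM in MMSET-Ikk2ca, against 40.9 to 198 CPM in Control(M). They reached 396 to 1533 CPM in Ccnd1 and 43.8 to 2675 CPM in MMSET. Monocyte and macrophage markers other than Ly6c2 (7 genes) summed to 1.69 to 24.1 CPM in Ccnd1-Ikk2ca, against 13.6 to 21.1 CPM in Control(D), and 11.8 to 42.5 CPM in MMSET-Ikk2ca, against 10.1 to 22.3 CPM in Control(M). Ly6c2 itself was 3741 to 7506 CPM in Ccnd1-Ikk2ca, against 490.4 to 853 CPM in Control(D), and 4856 to 10185 CPM in MMSET-Ikk2ca, against 1532 to 3547 CPM in Control(M). Single markers also moved with the groups. Klrk1, of the NK cell list, was 8.97 to 47.0 CPM in Ccnd1-Ikk2ca, against 0.341 to 3.46 CPM in Control(D) (log2 fold change 4.02, adjusted p = 0.0347, edgeR), with Ncr1, Klrb1c and Eomes at 0 in every Ccnd1-Ikk2ca library. C1qb, a macrophage marker, averaged 19.4 ± 9.96 CPM in MMSET-Ikk2ca and 26.9 ± 23.4 CPM in MMSET, against 3.42 ± 1.19 CPM in Control(M) (2.50 and 2.96, adjusted p = 0.00456 and 0.0111). Pecam1, of the stromal or endothelial list, rose by 2.04 in MMSET-Ikk2ca against Control(M) (adjusted p = 0.000674). Cdh5, Cxcl12, Lepr and Col1a1, the rest of the stromal or endothelial list, went the other way at low levels. They averaged 0 to 0.0201 CPM in MMSET-Ikk2ca, against 0.225 to 0.628 CPM in Control(M). Over all libraries, summed T cell markers stayed at or below 19.4 CPM, dendritic cell markers at or below 6.65 CPM, erythroid markers at or below 7.82 CPM, NK cell markers at or below 75.8 CPM and stromal or endothelial markers at or below 82.4 CPM. Summed neutrophil markers reached 2675 CPM, and monocyte and macrophage markers with Ly6c2 reached 10197 CPM. H2-K1 was at 684 CPM or more in every library, and how much class I RNA came from other cells was not tested.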

How the data were processed

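RNA of sorted plasma cells was sequenced in 36 libraries. The authors deposited, per the file headers, Salmon transcript tables with estimated counts (expected counts, not whole numbers) and TPM. The submitters' processing notes name bcl2fastq 2.20.0.422, Salmon 1.3.0 and DESeq2 1.32.0. Of 140825 transcripts, 139960 matched the GRCm38 annotation (GENCODE M21), and the deposited expected counts were summed over 54203 genes and rounded to whole numbers. The TPM deposited by the authors were summed per gene in the same way.

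Each cohort was fitted alone (18 libraries) with edgeR 4.0.16, with TMM scaling, its filter on low counts, the robust quasi-likelihood test, and Benjamini-Hochberg adjustment over all genes tested, with calls at an adjusted p under 0.05. Comparisons between cohorts used 1 fit of all 36 libraries. The SE of a log2 fold change was taken as its size over the root of the F statistic. Alternatives used limma 3.58.1 (voom with sample weights) and DESeq2 1.42.0, other scaling, no filter on low counts, no immunoglobulin genes, protein-coding transcripts only, Xist above 10 CPM as a covariate, other sets of libraries, the replicate block and each library left out. The fits were tested on simulated data. No pair of libraries was a duplicate. Separate animals are not stated in the sources used here.

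Same-numbered deviations from group means correlated at -0.043 to 0.169 in cohort D and -0.113 to 0.160 in cohort M, with 4 and 3 of 24 pairs over 0.1. Differently numbered libraries were not compared, so this cannot decide whether replicate numbers pair libraries. The 10 genes, the lists and the tests were chosen with earlier results of these data known. The text names all 10, up to 4 called genes per list with the smallest p (1 gene is not reported here), and the 8 genes most alike and most opposed among genes with a mean log2 CPM of at least 3. The kappa enhancer κB and IRF repeat motifs were added after the promoter windows were seen. Depth was 54.1 to 97.6 M reads per library, and the 10 genes together held 230022 to 1380090 reads in each.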

Additional observations from a re-analysis of the deposited data

Results flagged for a closer look

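In 5 of the 80 sets of libraries examined (10 genes in 8 groups), 1 library stood far from the others of its group by Dixon's criterion, which chance passes in about 1 set in 20 (5%). H2-D1 in Ccnd1 replicate 4 was 1925 CPM, against 735 to 807 CPM in the other 3 Ccnd1 libraries. H2-K1 in the same library was 1562 CPM, against 684 to 718 CPM in the others. B2m in Control(M) replicate 4 was 1945 CPM, against 3395 to 3651 CPM in the other 3. Tapbp in Control(D) replicate 3 was 419 CPM, against 347 to 358 CPM, and Psmb10 in MMSET-Ikk2ca replicate 2 was 48.3 CPM, against 60.5 to 67.2 CPM.

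None of 40 tests of a difference between effects passed for the 10 genes (lowest adjusted p 0.34, edgeR), and 1 of the tests of the genes in the 6 lists did. For Irf7, an interferon regulatory factor, the effect of MMSET-Ikk2ca against Control(M) exceeded that of Ccnd1-Ikk2ca against Control(D) by 1.87 ± 0.41 on the log2 scale (adjusted p = 0.0391, edgeR). Irf7 averaged 43.6 ± 16.3 CPM in MMSET-Ikk2ca and 21.2 ± 4.28 CPM in Control(M), and 12.7 ± 3.88 CPM in Ccnd1-Ikk2ca, against 22.6 ± 6.28 CPM in Control(D) (SD).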

How the results depend on the processing

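Of the 28 gene results called, 743 of 839 alternatives kept the call, 96 lost it and none reversed it. Of the 132 not called, 4277 of 4313 kept their side and 36 gained a call. Counts of called genes among the 10 that moved by over 1.5 times were as follows, and the others, single libraries left out aside, moved by at most 2 genes. DESeq2 called 2 in Ikk2ca(D) against Control(D) (1 in edgeR's main test), 1 in MMSET against Control(M) (0) and 3 in MMSET-Ikk2ca against Ikk2ca(M) (0). Limma voom called 7 in Ccnd1-Ikk2ca against Ccnd1 (4) and 2 in MMSET-Ikk2ca against Ikk2ca(M). All 36 libraries in 1 fit gave 7 and 1 in those comparisons. With Xist as a covariate, Ikk2ca(D) against Control(D) gave 0, as did MMSET-Ikk2ca against MMSET (3). With only the groups compared, these gave 0 and 0, and Ccnd1-Ikk2ca against Ccnd1 gave 2. The replicate block gave 4 in Ccnd1-Ikk2ca against Control(D) (7) and 1 in MMSET-Ikk2ca against Ikk2ca(M), and changed no other count by over 1.5 times. Whether replicate numbers pair the libraries is not known. DESeq2 size factors, no filter on low counts, leaving out immunoglobulin genes and protein-coding transcripts alone changed none by over 1.5 times. Of the alternatives whose effect on a count is given here, the cause was not tested.

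Leaving out 1 library at a time gave 2 to 7 in Ccnd1-Ikk2ca against Control(D), 0 to 2 in Ikk2ca(D) against Control(D), 2 to 6 in Ccnd1-Ikk2ca against Ccnd1, 6 to 8 in MMSET-Ikk2ca against Control(M), 0 to 3 in Ikk2ca(M) against Control(M), 0 to 3 in MMSET-Ikk2ca against MMSET, 0 to 2 in MMSET-Ikk2ca against Ikk2ca(M) and 3 to 3 in MMSET-Ikk2ca against Ccnd1-Ikk2ca. In Ikk2ca(D) against Control(D), 2 were called without Ccnd1 replicate 4. The other 8 comparisons gave 0 each time. Depth was not varied, so its effect on these calls was not tested.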
